A study of Mus musculus with 65 samples.

Results

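The comparison described here is that of antisense oligonucleotide (ASO) against vehicle in the pons of 28-week-old Atxn1[82Q] knockin mice. It rests on 8 of the 65 libraries of the series, 4 per treatment, chosen by tissue, age, genotype and treatment in the labels and by no measured value. Bulk messenger RNA was sequenced. Both groups were C57BL/6J and carried Atxn1[82Q], an endogenous Atxn1 gene whose CAG repeat codes for 82 glutamines. One group had received an ASO directed against Atxn1 and the other vehicle without ASO. A further group of 4 libraries from wild type C57BL/6J pons at 28 weeks, also given vehicle, served as reference and shared the model's estimate of the spread. The dose, route and time of treatment are not given in the labels used here. Nothing in the labels ties the libraries to separate animals, and p-values measure only the spread between these libraries, which may be technical.

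Atxn1 encodes ataxin-1, a nuclear protein that binds the transcriptional repressor Capicua, and expansion of its glutamine tract causes spinocerebellar ataxia type 1. An ASO pairs with its target transcript and lets RNase H1 cut it, which acts on mutant and normal transcripts alike unless it is made specific to an allele. The pons holds the locus coeruleus, the main noradrenergic nucleus of the brain, together with cranial motor nuclei, relay neurons to the cerebellum, long myelinated tracts and the usual glia and vessels. In bulk tissue, fewer cells of a type and less RNA per cell cannot be told apart.

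The 12 pons libraries held 66.7 to 82.7 M counts. Several of them stood apart in ways that the groups did not explain. The library labelled ASO 2 had an Atxn1 level inside the vehicle range, as detailed next, so each result is given with all 4 ASO libraries and without it. Vehicle 4 differed from the other vehicle libraries by a chi-square per degree of freedom of 39.7 to 50.6, against 5.42 to 14.7 among the other 3. The summed level of hindbrain Hox genes, which mark how far caudal a piece of tissue reaches, was 59.7 CPM (counts scaled to library size with TMM factors) in vehicle 4 and 17.9 to 23.3 CPM in the other vehicle libraries, and it was 19.5 CPM in ASO 4 and 39.1 to 44.2 CPM in ASO 1 to 3. Choroid plexus genes summed to 194 CPM in ASO 2 and to 51.4 to 84.9 CPM in the other 7 knockin libraries, and to 1384 CPM in wild type 2 against 52.3 to 72.6 CPM in the other wild type libraries. Xist, which is transcribed in cells with an inactive X chromosome, stood at 722 to 879 CPM in ASO 1 to 3 and in vehicle 3 and at no more than 4.29 CPM in ASO 4 and vehicles 1, 2 and 4, so the sexes were not balanced between treatments. The part of sex, dissection and these libraries in the results below was not tested beyond the values given.

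Atxn1 (ENSMUSG00000046876, chromosome 13, 45549755 to 45965008, minus strand, GRCm38), the target, read 26.7 CPM in ASO 1, 52.4 CPM in the library labelled ASO 2, 36.8 CPM in ASO 3 and 30.1 CPM in ASO 4. The vehicle libraries 1 to 4 read 60.9, 57.8, 59.1 and 45.2 CPM. ASO 1, 3 and 4 thus lay below every vehicle library, whereas the library labelled ASO 2 lay within the vehicle range. Wild type libraries stood at 40.9 ± 1.67 CPM (SD, n = 4). The mean difference was -19.24 CPM, with an exact two-sided permutation p of 0.0571, where 0.0286 is the smallest p that 4 against 4 libraries allow. In edgeR's quasi-likelihood test the log2 fold change was -0.61 ± 0.18 (SE), with a Benjamini-Hochberg adjusted p of 0.17. Leaving ASO 2 out gives -24.13 CPM and a log2 fold change of -0.82 ± 0.11, values that are a description only, since that library was set aside for its Atxn1 level. The counts do not separate the expanded from the normal transcript, and the region that the ASO binds is not used here.

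**Figure D1:**
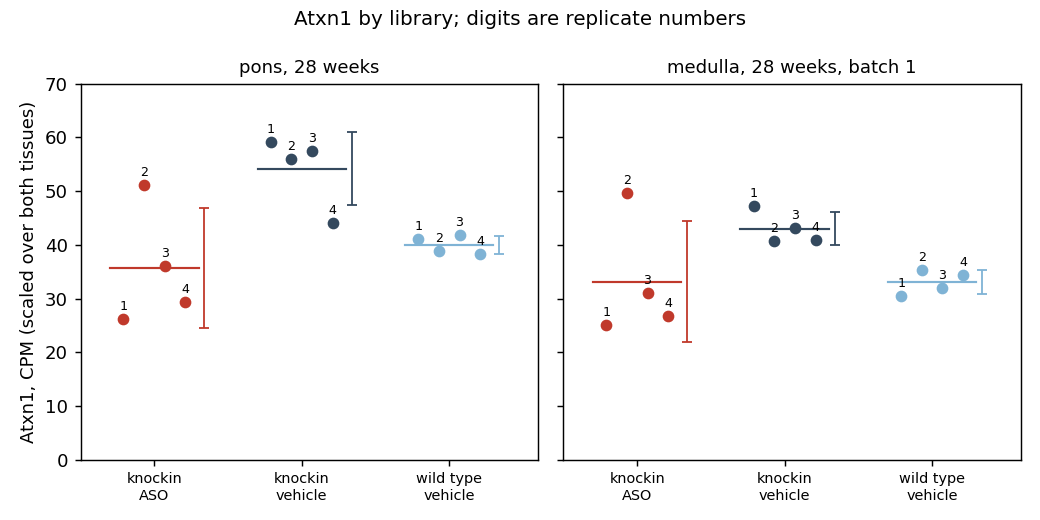
Atxn1 level in CPM (y axis) in pons at 28 weeks (left) and in the medulla libraries of batch 1 at 28 weeks (right), by group, with 1 point per library, its replicate number, the group mean (line) and the SD (bar at the side). Both tissues were scaled in 1 model, so values differ slightly from those of the pons alone. In both tissues ASO 1, 3 and 4 lie below the vehicle libraries and the library labelled ASO 2 does not.

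The number at the end of each column name tied every one of the 12 pons libraries to the medulla library of the same group and replicate number. The labels do not say whether this number names the animal. Scaled together with the pons, medulla ASO 2 read 49.6 CPM of Atxn1, against 25.1, 31.1 and 26.8 CPM in medulla ASO 1, 3 and 4 and 40.7 to 47.3 CPM in medulla vehicles 1 to 4. The high Atxn1 level of the library labelled ASO 2 was therefore present in both tissues that carry its number.

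With all 4 ASO libraries, 19 of 20458 genes tested (0.0929%) passed an adjusted p of 0.05, 17 of them higher and 2 lower with ASO (0.0831% and 0.00978% of genes tested). Without the library labelled ASO 2, 299 of 20794 (1.44%) passed, 278 higher and 21 lower (1.34% and 0.101%), and all 19 were among them. Of the 278 rises, 73 were at least 2-fold. ASO 2 lay at or below the highest vehicle library in 125 of the 278 and below every other ASO library in 239, while ASO 1 was the highest ASO library in 223. Among the 21 falls, ASO 2 lay at or above the lowest vehicle library in 11. These genes were called with ASO 2 left out, so its place relative to the other ASO libraries in them is a description only.

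As a background for the counts below, 14.6% of genes had an unadjusted p under 0.05 with all 4 ASO libraries (7.54% higher and 7.09% lower with ASO), and 12.7% without ASO 2 (8.02% and 4.7%). The ASO and vehicle libraries did not overlap in 7.32% of genes with all 4 ASO libraries (3.27% higher and 4.06% lower) and in 12.2% without ASO 2 (6% and 6.21%). In the same model, 9.79% of genes passed between vehicle-treated knockin and wild type and 1.07% between ASO-treated knockin and wild type.

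**Figure D2:**
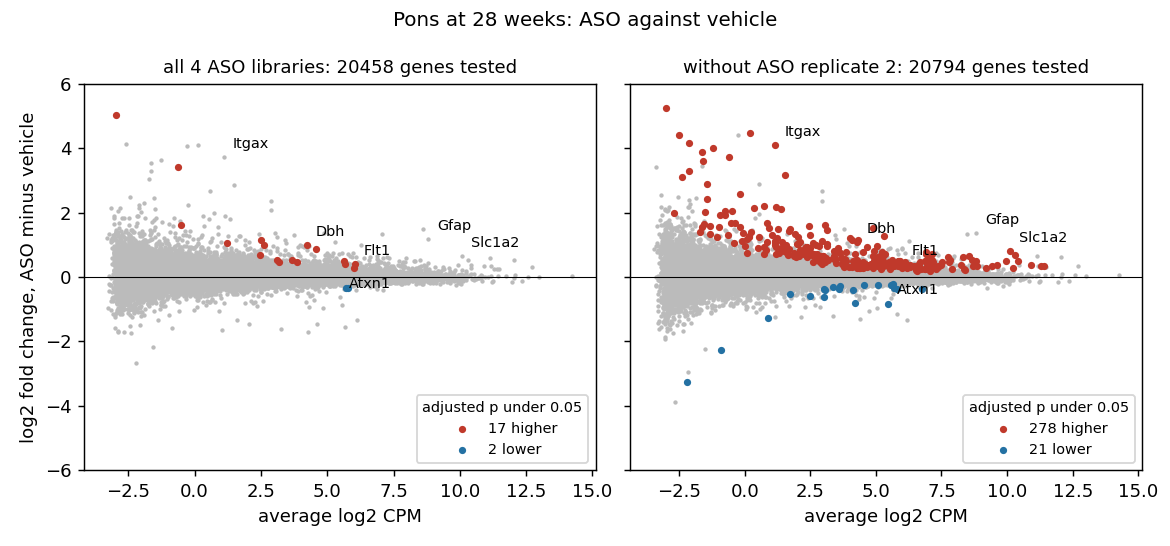
Log2 fold change, ASO minus vehicle (y axis), against average log2 CPM (x axis) for every gene tested, with all 4 ASO libraries (left) and without the library labelled ASO 2 (right). Coloured points passed an adjusted p of 0.05: 17 higher and 2 lower at left, 278 higher and 21 lower at right.

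Both counts moved with single libraries. With all 4 ASO libraries, 169 genes passed without vehicle 4, 95 without ASO 4, 8 without ASO 1 or wild type 2, 10 without wild type 3 and 4 or 5 when any other library than ASO 2 was left out. Without ASO 2, the count was 568 without vehicle 4, 519 without ASO 4, 132 without ASO 1, and 149, 131 and 149 without vehicles 1, 2 and 3. With sex, read from Xist, as a covariate, 4 genes passed with all ASO libraries and 165 without ASO 2. Of the 11 calls named below from the fit with all 4 ASO libraries, Dbh, Slc6a2 and Flt1 kept theirs in all 22 alternatives. The other 8 (Ptprc, Trac, Cd44, Cd93, Prom1, Cxcl12, Ccl3 and Gpc5) each lost it when ASO 3, vehicle 1, vehicle 2, wild type 1 or wild type 4 was left out, and with the sex covariate.

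A pair of noradrenergic genes rose, with every ASO library above every vehicle library. Dbh (ENSMUSG00000000889, chromosome 2, 27165233 to 27183200, plus strand, GRCm38) encodes dopamine beta-hydroxylase, which makes noradrenaline from dopamine. It read 13.7, 10.5, 12.3 and 14.4 CPM in ASO 1 to 4 and 6.41, 5.83, 6.49 and 6.86 CPM in vehicle 1 to 4. The groups did not overlap, and the library labelled ASO 2 was the lowest of its group but above every vehicle library. The log2 fold change was 0.99 ± 0.10 (SE), with an edgeR adjusted p of 0.00202 (1.08 ± 0.09 and 0.000203 without ASO 2). Wild type pons held 37.0 ± 4.36 CPM (SD, n = 4), so that Dbh in ASO-treated knockin, at 12.7 ± 1.71 CPM, was 1.54 log2 units below wild type, and in vehicle-treated knockin 2.53 log2 units below it.

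Slc6a2 (ENSMUSG00000055368, chromosome 8, 92960079 to 93001667), the noradrenaline transporter that takes the transmitter back into the cell, read 14.0, 14.2, 16.6 and 15.8 CPM with ASO and 7.80, 7.48, 9.28 and 8.38 CPM with vehicle. Here ASO 2 lay within the other ASO libraries. The log2 fold change was 0.88 ± 0.11, with an adjusted p of 0.00596, and wild type held 48.8 ± 7.79 CPM. The fold change of vehicle-treated knockin against wild type was -2.57 and that of ASO-treated knockin -1.69 on the log2 scale. These comparisons share libraries with each other and with that of ASO against vehicle, so the values stand side by side only.

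The other members of the noradrenergic list did not pass in edgeR. It had 12 members, of which 11 were tested, and the median log2 fold change of those 11 was 0.10, against -0.01 over all genes tested. Of the 11, 5 were higher at an unadjusted p under 0.05 and 4 had every ASO library above every vehicle library, Dbh and Slc6a2 among both. Without ASO 2, 5 passed in DESeq2 and 3 in limma-voom, and 3 passed in edgeR without ASO 4 or vehicle 4 as well. Th, the rate-limiting enzyme of catecholamine synthesis, which dopamine neurons also use, read 20.97 to 34.7 CPM with ASO and 20.6 to 32.3 CPM with vehicle, with complete overlap. Summed over the list, levels were 348 to 480 CPM with ASO, 347 to 412 CPM with vehicle and 540 to 808 CPM in wild type.

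Flt1 and a few other genes of blood vessels passed, with small rises. Flt1 (ENSMUSG00000029648, chromosome 5, 147561604 to 147726011, minus strand), a receptor for vascular endothelial growth factor on endothelial cells, read 77.1, 70.1, 72.5 and 70.4 CPM with ASO and 56.3, 53.5, 56.6 and 55.4 CPM with vehicle. Each ASO library lay above each vehicle library, the library labelled ASO 2 included. The log2 fold change was 0.39 ± 0.04, with an adjusted p of 0.00202, and wild type held 68.4 ± 2.66 CPM. Cd93, a surface protein of endothelial and myeloid cells, rose by a log2 fold change of 0.54 ± 0.09 (adjusted p 0.048), from 6.16 to 7.63 CPM with vehicle to 8.83 to 11.2 CPM with ASO. Cxcl12, a chemokine that endothelial and stromal cells make, rose from 33.1 to 43.7 CPM to 50.8 to 57.9 CPM, a log2 fold change of 0.48 ± 0.08 (adjusted p 0.0387).

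Of the 18 endothelial genes in the list, all tested, 1 rose with all 4 ASO libraries and 3 without ASO 2: Flt1, Egfl7 (adjusted p 0.0146) and Tie1 (adjusted p 0.0244). Egfl7 lost its call without ASO 1, ASO 3, vehicle 1 or vehicle 3, and Tie1 without ASO 1, ASO 3, vehicle 1 or vehicle 2. All 18 had a positive fold change in both fits, with a median of 0.28 in each, and 12 of the 18 had ASO libraries above every vehicle library, against 3.27% of all genes tested. At an unadjusted edgeR p under 0.05, 17 were higher with all 4 ASO libraries, against 7.54% of all genes. Without ASO 2 there were 15, against 8.02% of all genes, and 8 passed in DESeq2 and 6 in limma-voom. Leaving out ASO 1, ASO 3 or vehicle 1 left 1 endothelial call. The summed level was 583 to 646 CPM with ASO, 466 to 527 CPM with vehicle and 568 to 639 CPM in wild type. Of 14 genes of pericytes and smooth muscle, 0 passed in edgeR, with 5 at an unadjusted p under 0.05 with all 4 ASO libraries. Red blood cell genes, a sign of blood left in the tissue, summed to 110 to 229 CPM with ASO and 88.0 to 139 CPM with vehicle. The part of blood content in the vessel genes was not tested.

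The 250 bases before the start of Flt1 are shown because Flt1 kept its call in every alternative, with the cAMP response element TGACGTCA, a palindrome and therefore the same on both strands, in capitals. It covers chr5:147726012-147726261 (RefSeq, GRCm38.p6, minus strand).
Flt1: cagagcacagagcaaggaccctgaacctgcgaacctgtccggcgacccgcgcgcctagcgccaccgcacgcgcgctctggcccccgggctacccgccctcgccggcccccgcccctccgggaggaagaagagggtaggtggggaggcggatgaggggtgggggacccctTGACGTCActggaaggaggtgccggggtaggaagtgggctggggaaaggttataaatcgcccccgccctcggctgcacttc
The element began 81 bases before the start. It was found in 1.62% of 27025 promoters of this length, 1 per gene symbol, and in 3 of the 203 found for the 278 rising genes (1.48%): those of Flt1, Ch25h and Tmc7. A match is a description of letters only.

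**Figure D3:**
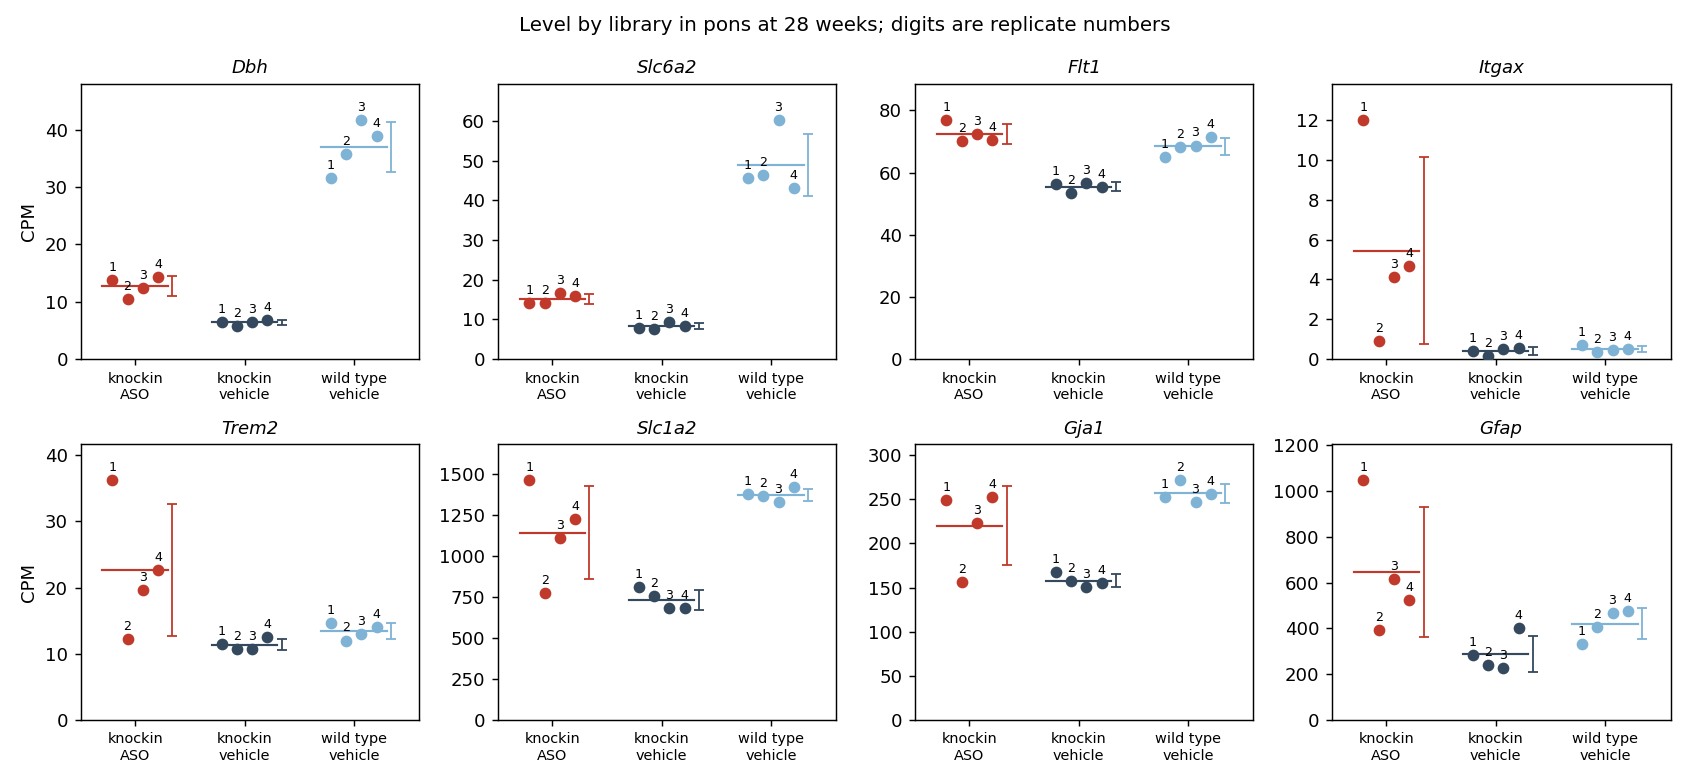
Level in CPM (y axis, from 0) of 8 genes in the 3 groups of pons at 28 weeks, with 1 point per library, its replicate number, the group mean (line) and the SD (bar at the side). Every ASO library lies above all vehicle libraries for Dbh, Slc6a2, Flt1 and Itgax. The library labelled ASO 2 is the lowest ASO library for Dbh, Flt1 and Itgax. For Trem2, Slc1a2, Gja1 and Gfap it lies below the highest vehicle library.

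Genes of activated microglia and other myeloid cells had the highest median fold change of 43 lists, with ASO 1 highest and the library labelled ASO 2 lowest of its group in the examples that follow. Microglia are the resident macrophages of the brain, and around lesions, plaques or dying cells they switch on a set that includes Itgax, Clec7a, Lpl and Apoe through the receptor Trem2. Itgax (ENSMUSG00000030789, chromosome 7, 128129547 to 128150657), an integrin subunit of activated microglia and dendritic cells, read 12.04 CPM in ASO 1, 0.928 CPM in ASO 2, 4.11 CPM in ASO 3 and 4.66 CPM in ASO 4. Vehicle libraries held 0.131 to 0.568 CPM and wild type libraries 0.337 to 0.684 CPM. Without ASO 2 this made a 16.9-fold rise, a log2 fold change of 4.08 ± 0.47 with an adjusted p of 0.00252, and with ASO 2 a log2 fold change of 3.72 ± 0.70 that did not pass (adjusted p 0.082).

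Clec7a, a receptor for fungal glucans that activated microglia carry, followed the same order, with 12.04, 1.77, 5.07 and 6.08 CPM in ASO 1 to 4 against 0.525 to 1.32 CPM with vehicle. It rose 9.05-fold without ASO 2 (adjusted p 0.00223). Lgals3, the lectin galectin-3, read 8.01, 1.53, 3.81 and 4.11 CPM against 0.817 to 1.44 CPM, a 4.54-fold rise (adjusted p 0.0015). For Lpl, lipoprotein lipase, the values were 21.4, 4.92, 11.4 and 12.7 CPM against 4.13 to 5.65 CPM, so that ASO 2 lay inside the vehicle range. Plau, which encodes urokinase, rose 4.29-fold (adjusted p 0.000952), the chemokine gene Ccl6 2.82-fold (adjusted p 0.0029) and Apoe, the lipid carrier of glia, 1.60-fold (adjusted p 0.00195), all without ASO 2. In ASO 2 these 3 stood at 1.56, 1.91 and 1023 CPM, against highest vehicle values of 1.40, 1.74 and 1057 CPM.

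All 26 genes of the list of activated microglia and myeloid cells were tested, and 16 rose without ASO 2, against 1.34% of all genes. With all 4 ASO libraries, 0 of the 26 passed and 24 had an unadjusted edgeR p under 0.05 with a higher level, against 7.54% of all genes. In DESeq2, 21 passed without ASO 2. The median log2 fold change was 1.09 without ASO 2 and 0.96 with it, against -0.01 over all genes in both fits. Leaving out vehicle 1, 2 or 3 as well left 9, 8 or 10 calls, the sex covariate left 10, and comparing only the ASO and vehicle groups left 7. The list's genes summed to 4273, 2533, 3020 and 3227 CPM in ASO 1 to 4. The sums were 2389 to 2676 CPM with vehicle and 2922 to 3092 CPM in wild type. Apoe alone made up 1881, 1023, 1366 and 1470 CPM in ASO 1 to 4. It held 954 to 1057 CPM with vehicle and 1307 to 1375 CPM in wild type. The list's median log2 fold change against wild type was 0.78 in ASO-treated and -0.16 in vehicle-treated knockin.

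Among the 20 genes of resting microglia, 4 rose without ASO 2 (Trem2, Tyrobp, Sparc and Fcrls) and 0 with it, where 13 had an unadjusted edgeR p under 0.05. Without vehicle 1, 2 or 3 as well, 1 rose, and 7 and 9 rose without ASO 3 and ASO 4. Trem2, the receptor named above, read 36.2, 12.2, 19.6 and 22.6 CPM with ASO and 10.7 to 12.5 CPM with vehicle, a 2.31-fold rise without ASO 2 (adjusted p 0.00682). Its adaptor Tyrobp rose 2.23-fold (adjusted p 0.0151), but not when vehicle 1, 2 or 3 was left out. Some defining markers of resting microglia did not pass in edgeR. Without ASO 2, P2ry12 had a log2 fold change of -0.01, Tmem119 of -0.02, Sall1 of 0.02 and Cx3cr1 of 0.53. Over the whole list, 17 of the 20 genes were higher and 3 lower without ASO 2, at a median log2 fold change of 0.45. Of these, 14 were higher at an unadjusted edgeR p under 0.05, and 12 passed in DESeq2 and 13 in limma-voom. Of 14 genes of border macrophages and monocytes, 0 passed in edgeR in either fit, with 2 at an unadjusted p under 0.05 with all 4 ASO libraries.

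Ptprc, which encodes CD45 and marks all white blood cells and microglia, was among the calls of both fits, with 11.8, 5.68, 8.49 and 7.57 CPM in ASO 1 to 4 against 3.60 to 4.03 CPM with vehicle. All 4 ASO libraries were above all vehicle libraries, at a log2 fold change of 1.14 ± 0.17 (adjusted p 0.025). Of 25 genes of T and NK cells, 16 were tested without ASO 2 and 1 rose, Trac, the constant region of the T cell receptor alpha chain. Trac read 3.21, 1.81, 2.89 and 2.64 CPM with ASO and 0.975 to 1.51 CPM with vehicle, a log2 fold change of 1.06 ± 0.18 (adjusted p 0.0387), and wild type held 2.95 ± 0.233 CPM. Cd3e, an invariant part of the same receptor, had a log2 fold change of 0.03 without ASO 2, and Cd3d, Cd3g and Trbc1 were too low to be tested. The whole list summed to 10.2 to 12.98 CPM with ASO and 9.73 to 11.2 CPM with vehicle. Of 19 genes of B and plasma cells, 13 were tested with all 4 ASO libraries and 0 passed in edgeR, with 3 at an unadjusted p under 0.05.

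Ccl3 and Ccl4, chemokines that draw in white blood cells, were low with vehicle. Ccl3 read 0.501 CPM in ASO 2, the lowest of its group, to 3.18 CPM in ASO 1, the highest, and 0.0824 to 0.202 CPM with vehicle, a log2 fold change of 3.41 ± 0.53 with all 4 ASO libraries (adjusted p 0.0345). Of 23 chemokine and cytokine genes, 16 were tested, 2 rose with all 4 ASO libraries (Ccl3 and Cxcl12) and 4 without ASO 2, which added Ccl4 (adjusted p 0.00934) and Il33 (adjusted p 0.00873). Without ASO 1 as well, 2 of the 4 passed. Ccl2, Ccl5 and Cxcl10 did not pass, with log2 fold changes of 0.08, 1.00 and 0.91 without ASO 2, and Il6, Tnf and Ifng were too low to be tested.

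Complement genes rose in part. C3ar1, the receptor for a fragment of complement C3, rose 2.70-fold without ASO 2 (adjusted p 0.00754), from 1.44 to 2.74 CPM with vehicle to 7.80, 4.23 and 4.53 CPM in ASO 1, 3 and 4. Of 19 complement genes, 18 were tested and 3 rose without ASO 2 (C3ar1, Clu and Itgb2). All 18 were higher with all 4 ASO libraries and 17 without ASO 2, at median log2 fold changes of 0.42 and 0.46. Without ASO 2, 10 were higher at an unadjusted edgeR p under 0.05, and 9 passed in DESeq2 and 8 in limma-voom. Itgb2 lost its call without any 1 of vehicles 1 to 3 or wild types 1 to 4, and 6 genes passed without ASO 1, 3 or 4. The microglial C1q genes did not pass in edgeR, with log2 fold changes of 0.83 to 0.89. Of 26 lysosome genes, 25 were tested and 3 rose (Cd68, Laptm5 and Grn), a count that was 0 without vehicle 1, 2 or 3, 5 without ASO 1 or ASO 4, 7 without ASO 3 and 6 without vehicle 4. DESeq2 called 9. At an unadjusted edgeR p under 0.05, 11 of the 25 lysosome genes were higher with all 4 ASO libraries and 13 without ASO 2, and 0 lower in either. The medians were 0.12 and 0.15 on the log2 scale. Other lysosomal genes did not pass in edgeR, such as the membrane protein Lamp1 at 0.14 and the hydrolase Hexa at 0.25 on the log2 scale without ASO 2.

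The interferon list had no call. Of its 35 genes, all tested, 0 passed in edgeR in either fit, with 1 at an unadjusted p under 0.05 in each direction with all 4 ASO libraries. The median log2 fold change was 0.05 with all 4 ASO libraries and 0.02 without ASO 2. Of 19 genes of MHC class I presentation 0 passed in edgeR, with 2 at an unadjusted p under 0.05 in each fit, and of 12 of class II presentation 1 rose without ASO 2: Ifi30, a thiol reductase of antigen processing, at 1.52-fold (adjusted p 0.0386), lost without ASO 1, ASO 3, vehicle 1, vehicle 2 or any wild type library. Over the 12 class II genes the median log2 fold change was 0.36 with all 4 ASO libraries and 0.22 without ASO 2. At an unadjusted edgeR p under 0.05, 6 and 5 of them were higher and 0 lower. Cd74 and H2-Aa, which define class II presentation, had log2 fold changes of 0.19 and -0.08 without ASO 2. For 20 genes of RNase H1 and of ASO uptake or sensing, 0 passed in edgeR in either fit, with 7 higher and 2 lower at an unadjusted p under 0.05 with all 4 ASO libraries.

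The window before Cybb, the NADPH oxidase subunit of phagocytes, is shown as the only one found among the rising genes of the list of activated microglia and myeloid cells that holds the interferon-stimulated response element TTTCNNTTTC. Cybb rose without ASO 2 at a log2 fold change of 1.66 ± 0.30 (adjusted p 0.0137), with 5.39, 2.46, 2.50 and 2.86 CPM in ASO 1 to 4 and 0.773 to 1.59 CPM with vehicle. The window covers chrX:9469325-9469574 (RefSeq, GRCm38.p6, minus strand), where GENCODE places an intron of Cybb, with matches on either strand in capitals.
Cybb: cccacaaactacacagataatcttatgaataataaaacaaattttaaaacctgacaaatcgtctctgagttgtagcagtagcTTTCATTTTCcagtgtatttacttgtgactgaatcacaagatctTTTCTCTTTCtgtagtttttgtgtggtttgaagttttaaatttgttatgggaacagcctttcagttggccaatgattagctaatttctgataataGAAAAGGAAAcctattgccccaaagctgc
The 3 matches began 168, 124 and 29 bases before the start. The motif is in 3.04% of all promoters of this length, in 8 of the 203 found for rising genes (3.94%) and in 1 of 15 found for rising myeloid genes.

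Several astrocyte genes rose without ASO 2 and lay near their vehicle level in that library. Astrocytes clear glutamate and potassium and couple to each other through gap junctions. Slc1a2 (ENSMUSG00000005089, chromosome 2, 102658659 to 102790784), the main glutamate transporter of the brain, read 1460, 774, 1109 and 1221 CPM in ASO 1 to 4 and 807, 756, 680 and 684 CPM with vehicle. The library labelled ASO 2 lay among the vehicle libraries, and the other 3 lay above them. Without ASO 2, Slc1a2 rose 1.74-fold, a log2 fold change of 0.80 ± 0.08 (adjusted p 0.000474), and wild type held 1371 ± 37.8 CPM. With all 4 ASO libraries the log2 fold change was 0.64 ± 0.15 and did not pass (adjusted p 0.12).

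Gja1, the gap junction protein connexin 43, read 249, 156, 223 and 252 CPM with ASO and 151 to 168 CPM with vehicle, a 1.54-fold rise without ASO 2 (adjusted p 0.000203). Agt, angiotensinogen, read 122, 82.5, 140 and 125 CPM against 73.4 to 84.3 CPM, a 1.64-fold rise (adjusted p 0.000408). ASO 2 lay within the vehicle range for both. Wild type means were 257 CPM for Gja1 and, by library, 143 to 167 CPM for Agt.

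Of the 20 astrocyte genes, all tested, 11 rose without ASO 2 and 0 with it in edgeR, where 14 had an unadjusted p under 0.05, at medians of 0.38 and 0.31 on the log2 scale. They include Ntsr2, Glul, the glutamine synthetase, Aqp4, the water channel of astrocyte endfeet, and Kcnj10, a potassium channel. In DESeq2, 15 passed without ASO 2. Leaving out ASO 1, vehicle 1, vehicle 2 or vehicle 3 as well left 7, as did the sex covariate. Other markers did not pass: without ASO 2, Aldh1l1, Slc1a3 and S100b had log2 fold changes of 0.08, 0.11 and 0.05, and Gdf10 one of -0.62. Summed over the list, levels were 10700, 7786, 9013 and 9302 CPM in ASO 1 to 4, 6857 to 7520 CPM with vehicle and 10420 to 11080 CPM in wild type.

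Gfap, the intermediate filament that reactive astrocytes accumulate, read 1048, 394, 617 and 524 CPM with ASO and 283, 240, 226 and 402 CPM with vehicle. ASO 2 lay below vehicle 4, the other 3 above it, and neither fit passed, at a log2 fold change of 1.17 ± 0.30 (adjusted p 0.148) with all libraries and 1.35 ± 0.28 (adjusted p 0.064) without ASO 2. Of 18 genes of reactive astrocytes, 1 rose with all ASO libraries and 3 without ASO 2. Cd44, a hyaluronan receptor, was called in both, with 11.9, 7.57, 7.12 and 7.17 CPM against 3.64 to 5.03 CPM and a log2 fold change of 1.00 ± 0.17 (adjusted p 0.0387). Osmr, the oncostatin M receptor, rose 1.85-fold (adjusted p 0.017) and S1pr3, a receptor for sphingosine phosphate, 1.57-fold (adjusted p 0.0126) without ASO 2. Without ASO 1 or vehicle 1, 1 of the 3 passed, and 6 passed without ASO 4. All 18 were higher with all ASO libraries and 17 without ASO 2, at median log2 fold changes of 0.47 and 0.54. At an unadjusted edgeR p under 0.05, 11 and 9 were higher, and DESeq2 called 7 without ASO 2.

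The window before Kcnj10 is shown as the only one found among rising astrocyte genes that holds a Capicua octamer, TGAATGAA or TGAATGGA, on either strand. Windows were found for 8 of the 11 rising astrocyte genes. Kcnj10 read 565, 368, 417 and 412 CPM with ASO and 319 to 342 CPM with vehicle, a log2 fold change of 0.51 ± 0.11 without ASO 2 (adjusted p 0.0387). The window covers chr1:172340960-172341209 (RefSeq, GRCm38.p6, plus strand).
Kcnj10: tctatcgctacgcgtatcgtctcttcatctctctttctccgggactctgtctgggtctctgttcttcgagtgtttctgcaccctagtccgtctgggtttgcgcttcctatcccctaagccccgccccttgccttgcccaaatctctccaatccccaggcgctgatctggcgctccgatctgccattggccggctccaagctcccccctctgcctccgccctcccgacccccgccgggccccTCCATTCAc
The octamer, in capitals and here on the opposite strand, began 9 bases before the start. It is in 2.08% of all promoters of this length and in 4 of the 203 found for rising genes (1.97%). Of 21 genes that Capicua is known to repress, all tested, 0 passed in edgeR in either fit. At an unadjusted p under 0.05 there were 0 with all 4 ASO libraries and 2 without ASO 2, both lower: Ccnd2, a D-type cyclin (log2 fold change -0.46, adjusted p 0.0775), and Etv4, an ETS factor (-0.35, adjusted p 0.223). The list had a median log2 fold change of 0.04 with all ASO libraries and 0.06 without ASO 2. Cic itself read 147 to 163 CPM with ASO and 129 to 150 CPM with vehicle, and Atxn1l, the paralog of Atxn1, 43.0 to 45.6 CPM against 45.8 to 48.6 CPM. Neither passed.

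Genes of cholesterol synthesis, which oligodendrocytes and astrocytes need for membranes, rose in part and by small amounts. Dhcr7, which makes the last step to cholesterol, read 50.2, 40.1, 45.2 and 42.7 CPM with ASO and 35.9 to 37.8 CPM with vehicle, so that every ASO library was above every vehicle library. It rose 1.27-fold without ASO 2 (adjusted p 0.00513) and did not pass with it (adjusted p 0.0738). Of 25 genes, all tested, 6 rose without ASO 2 (among them Dhcr7, Mvd, Msmo1 and Cyp51) and 0 with it in edgeR, where 14 had an unadjusted p under 0.05, at medians of 0.22 and 0.14. Those 6 of 25 compare with 1.34% of all genes. Without ASO 2, 18 of the 25 were higher at an unadjusted p under 0.05, against 8.02% of all genes, and 12 passed in DESeq2 and 16 in limma-voom. Without vehicle 4 as well, 15 passed. Without ASO 3 or vehicle 2, 1 passed, and the other left-out libraries gave 2 to 7. The sterol regulatory element TCACNCCAC was in 0 of the 4 promoters found for the 6 rising genes and in 1.04% of all promoters of this length.

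In oligodendrocytes, 1 of 24 myelin genes rose without ASO 2: Tspan2, a membrane protein of myelin, at 1.44-fold (adjusted p 0.0145), lost without ASO 1, vehicle 1 or vehicle 2. All 24 had positive fold changes in both fits. Mbp, myelin basic protein, read 8344, 6529, 6451 and 6036 CPM with ASO and 5176, 4900, 4796 and 7358 CPM with vehicle, where vehicle 4 was above 3 of the ASO libraries. The Mbp fold change did not pass in either fit (adjusted p 0.34 with all ASO libraries). Of 16 genes of oligodendrocyte precursors, 0 passed in edgeR, with 1 at an unadjusted p under 0.05.

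Neuronal lists other than the noradrenergic one had few or no calls. Of 15 genes of cholinergic motor neurons, 14 were tested, 0 passed in edgeR in either fit and 8 had an unadjusted p under 0.05 with a higher level, at a median log2 fold change of 0.58. Chat, which makes acetylcholine, read 16.6, 9.98, 14.1 and 8.55 CPM with ASO, 6.95 to 9.13 CPM with vehicle and 14.5 to 22.7 CPM in wild type (adjusted p 0.176 with all ASO libraries). Among 18 hindbrain neuropeptides, Crh, corticotropin-releasing hormone, rose 1.57-fold without ASO 2 (adjusted p 0.042), lost without ASO 1, ASO 3, vehicle 1, 2 or 3 or wild type 1, 3 or 4. Of 18 immediate early genes, Jun rose 1.27-fold (adjusted p 0.0254), lost without ASO 1, ASO 3 or vehicles 1 to 3. Lists of serotonergic neurons (12 genes), glycine and GABA (17) and glutamate transmission (20), voltage-gated channels (28), neurofilaments (14), cerebellar granule cells (18) and Purkinje cells (20) had 0 calls in edgeR in either fit, with 1 to 3 genes each at an unadjusted p under 0.05 with all 4 ASO libraries.

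Falls were few. Gpc5, a glypican that carries heparan sulfate on the cell surface, read 45.1, 51.8, 43.7 and 48.9 CPM with ASO and 59.0, 62.7, 62.7 and 57.8 CPM with vehicle, with no overlap. Its log2 fold change was -0.35 ± 0.06 (adjusted p 0.0345), and wild type held 58.5 ± 3.21 CPM, so that only the ASO libraries were low.

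Without ASO 2 the falls included Zfp488, a zinc finger factor of oligodendrocytes, at 8.04, 7.11 and 6.40 CPM in ASO 1, 3 and 4 against 10.99 to 11.6 CPM with vehicle (adjusted p 0.00392). ASO 2 read 11.6 CPM there, within the vehicle range. Chdh, which oxidises choline, read 16.7, 15.6 and 11.8 CPM against 23.4 to 30.7 CPM, with 29.3 CPM in ASO 2 (adjusted p 0.0205 without it). Aass, an enzyme of lysine breakdown, fell 1.52-fold (adjusted p 0.0338), lost without ASO 1, 3 or 4, vehicle 1 or 3 or wild type 4. The calls of Immp2l, Slc13a5 and Col9a2, at adjusted p 0.0409, 0.0379 and 0.0409, were lost in 13, 11 and 11 of 20 alternatives.

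**Figure D4:**
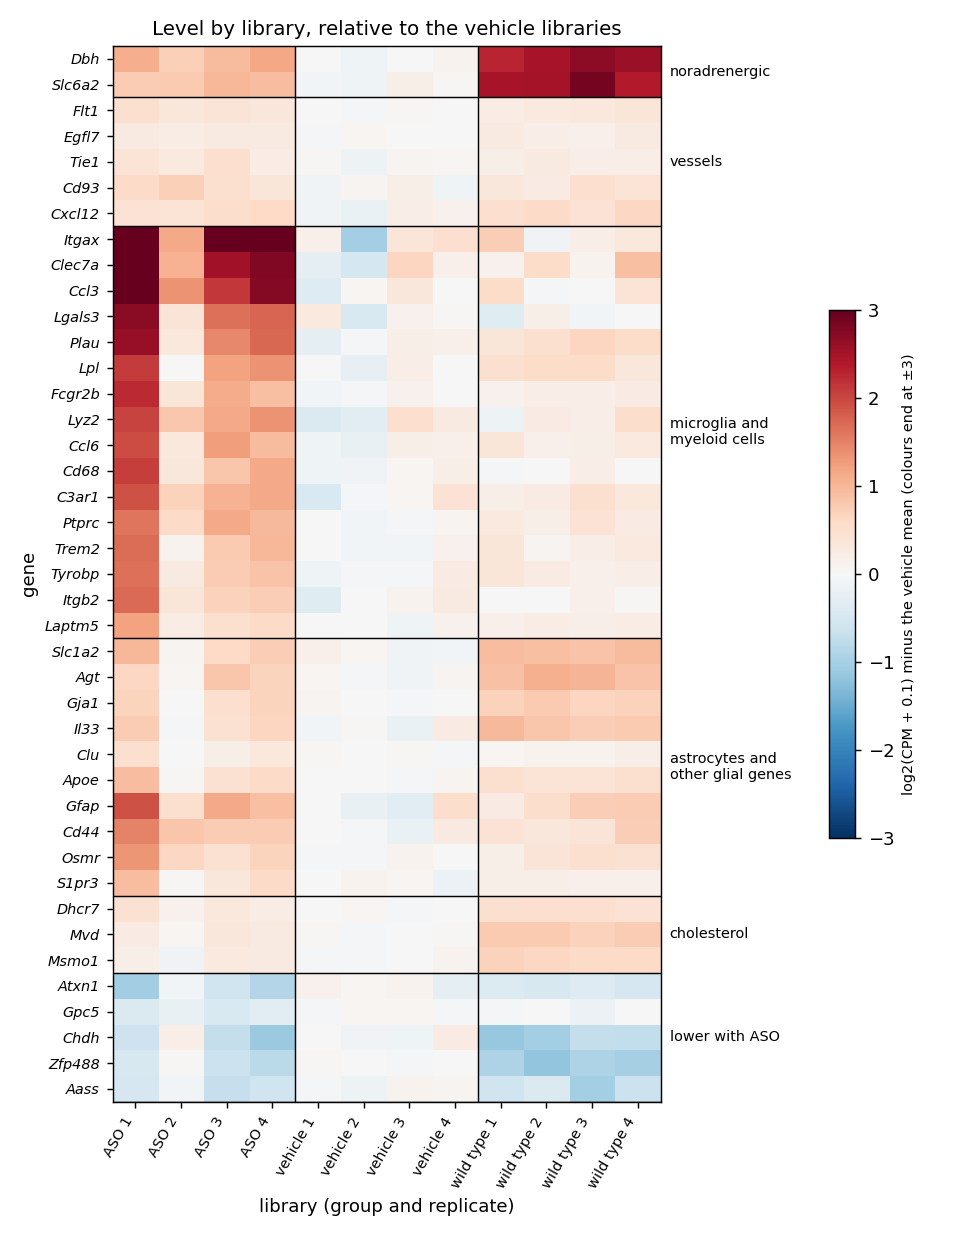
Level of 41 named genes (rows) in the 12 pons libraries at 28 weeks (columns), as log2(CPM + 0.1) minus the mean of the vehicle libraries, with colours that end at 3 log2 units either way. The column of the library labelled ASO 2 is paler than those of ASO 1, 3 and 4 for glial and myeloid genes other than Cd44 and Osmr, and close to theirs for Dbh, Slc6a2 and the vessel genes.

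**Figure D5:**
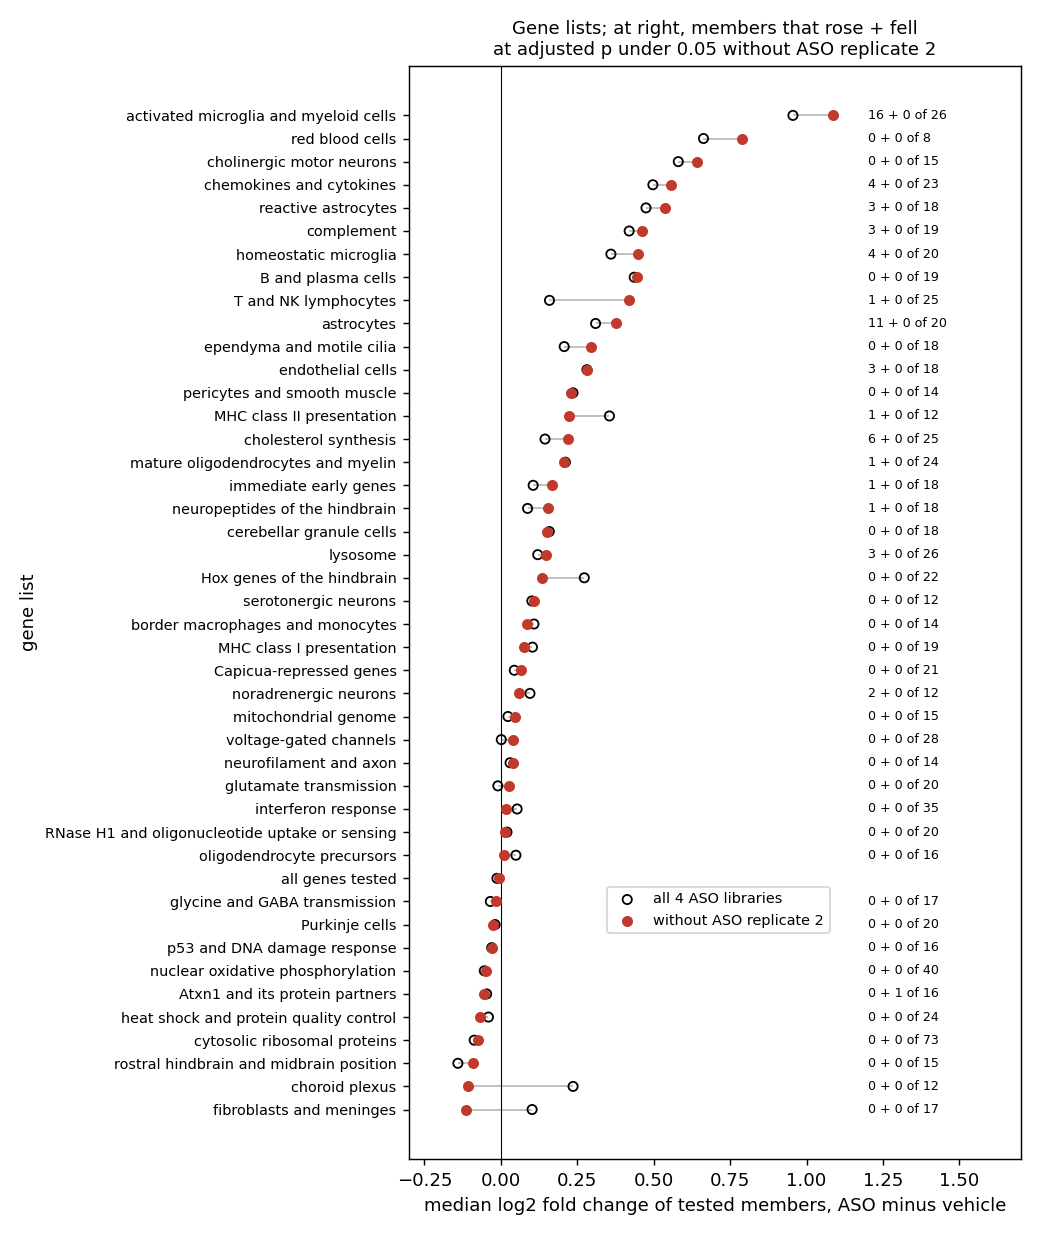
Median log2 fold change, ASO minus vehicle (x axis), of the tested members of 43 gene lists and of all genes tested (rows), with all 4 ASO libraries (open) and without ASO 2 (filled), and at right the members that rose and fell of all members. Activated microglia and myeloid cells have the highest median, 1.09 without ASO 2, with 16 of 26 called.

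General stress and metabolism lists had 0 calls in edgeR in either fit. They were 73 cytosolic ribosomal proteins (median log2 fold change -0.09 with all ASO libraries), 40 nuclear genes of oxidative phosphorylation (-0.05), 15 genes of the mitochondrial genome (0.02), 24 of heat shock and protein quality control (-0.04) and 16 of the p53 and DNA damage response (-0.03). With all ASO libraries 16 ribosomal genes were lower at an unadjusted p under 0.05 and 0 higher, and the other 4 lists had 2 to 6 genes past it. Eda2r, a p53 target on the X chromosome, had the smallest p of the p53 list, with 0.847 to 1.30 CPM with ASO and 1.72 to 2.23 CPM with vehicle, and did not pass (adjusted p 0.10).

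Whether the ASO effect differed between pons and medulla was tested as an interaction over 35 libraries at 28 weeks, with the medulla batch as a term. None of 21718 genes passed (0% called), with 884 at an unadjusted edgeR p under 0.05 and 2259 in limma-voom, where 0 passed too. With medulla batch 1 only and the header number as a block, 0 passed in edgeR as well. The interaction for Dbh was 1.04 ± 0.38 log2 units (adjusted p 1), from a medulla fold change of -0.04 ± 0.26, and medulla held 3.61 to 11.3 CPM of Dbh with ASO and 4.28 to 13.9 CPM with vehicle. The highest of these Dbh values were those of medulla ASO 7 and vehicle 8. Flt1 had a medulla fold change of 0.03 ± 0.09 and an interaction of 0.36 ± 0.13 (adjusted p 1). Slc1a2 rose in medulla by 0.69 ± 0.09 log2 units (adjusted p 0.000446), with an interaction of -0.04 ± 0.17. Itgax rose in medulla by 1.89 ± 0.43 log2 units (adjusted p 0.0229), and its interaction was 1.85 ± 0.78 (adjusted p 1). Medulla alone had 346 calls of 20465 genes (1.69%). Its batch 1, which carries the same header numbers as the pons, had 0 calls of 20511 with its 4 ASO libraries (0%) and 137 of 20822 (0.658%) without its ASO 2. In batch 1 with its 4 ASO libraries, log2 fold changes were -0.24 ± 0.23 for Dbh, 0.79 ± 0.15 for Slc1a2 and 2.52 ± 0.61 for Itgax.

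Against pons at 18 weeks, with 3 libraries per group, the interaction likewise gave 0 calls of 21230 genes (0%), with 2279 at an unadjusted edgeR p under 0.05. The 18-week libraries limit this comparison, because Atxn1 went against some of their labels. The ASO libraries 1 to 3 read 16.6, 51.7 and 24.5 CPM, vehicle libraries 45.1, 45.9 and 50.2 CPM, and the libraries labelled wild type 52.4, 34.1 and 16.7 CPM. The library labelled wild type 3 at 18 weeks thus had an Atxn1 level like that of ASO 1, and 9.41 CPM of Itgax against 0.391 and 0.594 CPM in the other libraries labelled wild type. At 18 weeks Dbh read 16.8, 9.52 and 15.6 CPM with ASO and 17.2, 4.24 and 20.2 CPM with vehicle, which overlap. Prom1, a membrane protein of glial and stem cells, had an interaction of 0.73 ± 0.17 log2 units, with an adjusted p of 0.373, the lowest over all genes. In the pons at 28 weeks Prom1 rose from 8.27 to 10.4 CPM with vehicle to 13.1 to 15.8 CPM with ASO (adjusted p 0.0345). Without the ASO libraries numbered 2 of both ages, 0 genes passed and 1708 had an unadjusted p under 0.05.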

How the data were processed

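Whole-number read counts for 49670 gene IDs were deposited by the authors in 1 table, without scaling that the values would show. Per the submitters' processing notes, CASAVA 1.8, HISAT2 2.0.2, featureCounts of Subread, R 3.3.3, DESeq2 1.14.1 and the build GRCm38 were used; the notes as given here do not state the settings. Per the labels' protocols, RNA was extracted with TRIzol and RNeasy and made into TruSeq stranded libraries; the strand setting of the counting is not stated in them. Between 73.2% and 76.8% of counts from 1 to 20 were even numbers, a pattern that counting each mate of a read pair would give. GENCODE vM21 named 49411 IDs, and 259 stayed unnamed. No column was left unmapped.

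The 3 groups of pons at 28 weeks were fitted in 1 model with edgeR 4.0.16 in R 4.3.3 (TMM scaling, filterByExpr at a minimum count of 10, robust quasi-likelihood), and again without ASO 2. P-values were adjusted by Benjamini-Hochberg over all genes tested. A printed SE is the fold change divided by the square root of the F statistic. Interactions with medulla at 28 weeks and pons at 18 weeks were tested in joint models. Alternatives were DESeq2 1.42.0, limma 3.58.1 (voom with quality weights), RLE scaling, other filters, counts divided by 2, a replicate block, a sex covariate and left-out libraries. The sex covariate, the alternatives to the fit without ASO 2 and the fits with header numbers as a block were added after seeing the data. Members and the 44 gene lists were chosen with earlier results of these data known.

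Named genes were Atxn1, up to 8 rises and 8 falls per fit (called, average log2 CPM of at least 1, no overlap of libraries, no provisional or sex-linked symbol), up to 3 called members of smallest p per list or else 1, and Atxn1l, Cic, Gfap, Aif1, Dbh, Chat and Mbp. Some genes that the rule names are not reported here. Other genes named in the text are list members given for their role or chosen after their values were seen. On simulated counts with all ASO libraries, 58% of genes changed 1.5-fold and 68% of those changed 2-fold were recovered among 20458 genes. Without ASO 2, 52% and 79% were recovered among 20794. Of the 131 and 140 genes called, 5 and 9 were false. The simulated libraries varied independently about the same mean, without libraries that stand apart or differ in sex, so these shares need not hold for the real libraries. Promoter windows are RefSeq's.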

Additional observations from a re-analysis of the deposited data

Results flagged for a closer look

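In 10 of 166 groups of 4 pons libraries (83 named genes, ASO and vehicle groups), the highest or lowest library was separated from the others by a gap above Dixon's 95% critical value. Chance alone flags about 1 group in 20. Vehicle 4 was the separate library in 4 of the 10, ASO 1 in 3 and the library labelled ASO 2 in 0. In vehicle 4, Cic was lowest at 129 CPM, while Ms4a7, a gene of border macrophages, was highest at 0.608 CPM, Hoxc4 at 5.78 CPM and Mbp at 7360 CPM. In ASO 1, Cd44 was highest at 11.9 CPM, Prom1 at 15.8 CPM and Slc6a9, the glial glycine transporter, at 233 CPM. In ASO 4, the ribosomal protein gene Rpl3 was highest at 191 CPM and Eda2r lowest at 0.847 CPM. In vehicle 2, Pdgfra, a receptor of oligodendrocyte precursors and fibroblasts, was lowest at 52.3 CPM. What sets these libraries apart was not tested.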

How the results depend on the processing

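No named gene that was called in a main fit or in its alternative reversed direction between them. Sign changes of genes called in neither were not counted. The medians of 3 lists without calls changed sign without ASO 2. They went from 0.10 to -0.12 for fibroblasts and meninges, 0.24 to -0.11 for choroid plexus and -0.01 to 0.03 for glutamate transmission. With all 4 ASO libraries, the 19 calls became 3 with only the ASO and vehicle groups, 620 in DESeq2, 789 in limma-voom, 76 without a filter on low counts, 4 with the sex covariate, 124 without ASO 2 and with only those groups, and 4 to 299 when 1 library was left out. Without ASO 2, the 299 became 124, 770 and 763 with only those groups, DESeq2 and limma-voom, 165 with the sex covariate and 131 to 568 when 1 more library was left out. RLE scaling, a minimum log2 CPM of 1 and counts divided by 2 gave 15 to 21 and 288 to 305. With the replicate block, 8 and 106 passed. Deviations of libraries with the same number correlated at r of -0.175 to 0.217. Libraries with different numbers were not compared, so these values cannot say whether the numbers pair libraries within the pons. Both interactions had 0 calls in every alternative. The Atxn1 difference of -19.24 CPM (exact p 0.0571) ranged from -24.13 to -15.6 CPM with 1 library left out, the value without ASO 2 being a description only. Of 51 named calls without ASO 2, 21 held in all alternatives tried for them and 30 were lost in 1 to 15. Of the 278 rises without ASO 2, 33 had an average log2 CPM under 0 and rest on fewer reads than genes of higher level.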
